A study of Mus musculus with 405 samples.

Results

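Expression of 40 cell cycle and proliferation genes was examined in mouse cortical cultures exposed to chemicals. The genes were taken by symbol from a list. This list, the further gene lists and the chemical classes below were chosen with earlier results of these data known. The shares of members called are therefore a description beside the shares of all genes. All 40 were among the 23893 genes of a table of raw read counts for the fungicide pyraclostrobin, and 36 were among the 13304 genes of a table of normalized values from a chemical screen, which did not list Bub1, Bub1b, Ube2c and Kif23. Cultures were made from cerebral cortex of hybrid embryos at day 15 (C57BL/6J mothers, CAST/EiJ fathers), were given 1 chemical or dimethylsulphoxide vehicle on day 7 in vitro for 24 h, and yielded polyadenylated RNA. All cultures, vehicle included, had earlier received uridine 5'-triphosphate and 5-fluoro-2'-deoxyuridine to stop dividing cells. The screen held 49 vehicle libraries, 32 libraries of topotecan at 0.3 μM, and 312 libraries of 296 other chemicals. The count table held 4 libraries of pyraclostrobin at 0.1 μM and 4 of vehicle, numbered 428, 702, 703 and 704 in each group. A number shared by a pyraclostrobin and a vehicle library is called a pair only as a name. Whether the libraries of a group came from separate cultures is not stated in the labels. For the count table, a figure legend of the paper gives fewer biological replicates than libraries, and its gene list gives 4 sample replicates. Within groups, libraries 702, 703 and 704 differed by 1.69 to 2.89 chi-square per degree of freedom, where counting noise gives about 1. Library 428 differed from them by 7.87 to 27.4. The 4 libraries of a group may thus stand for fewer separate cultures, which was not tested. The p-values measure the spread between libraries, part of which may be technical.

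Proliferating cells copy their DNA in S phase and divide it in M phase. The proteins of S phase include the MCM2 to MCM7 helicase, the sliding clamp PCNA and ribonucleotide reductase, whose subunits RRM1 and RRM2 supply deoxynucleotides. Entry into M phase requires the kinase CDK1 with cyclins A and B, and M phase itself uses Aurora and Polo kinases, kinesin motors, kinetochore proteins, condensin and, for the final cut between daughter cells, anillin and ECT2. Mature neurons do not divide, whereas astrocytes, microglia, progenitors and vascular cells can, and transcripts of these genes are commonly used as marks of dividing cells. Transcription of many of them is held down outside the cell cycle by the DREAM complex and activated by E2F and B-MYB factors, through CHR elements, CCAAT boxes and E2F sites close to the start site.

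The bases before the start site of 6 members are shown because the members described below differ in which of these elements they carry. Each run holds the 150 bases before the start of the RefSeq model in GRCm38.p6, 5′ to 3′ on the strand of the gene, with capitals on the CHR letters TTTGAA or TTTAAA, the CCAAT box CCAAT and the E2F letters TTTCCCGC, TTTCGCGC, TTTGCCGC or TTTGGCGC. Each was searched on both strands, so that reverse complements also stand in capitals. The letters of the 3 elements do not contain one another, although neighbouring matches may overlap. The windows are chr10:69352913-69353062 for Cdk1, chr11:99024190-99024339 for Top2a, chr7:135716380-135716529 for Mki67 and chr13:100786487-100786636 for Ccnb1, all on the minus strand, chr8:75109359-75109508 for Mcm5 on the plus strand and chr2:132253181-132253330 for Pcna on the minus strand.
Cdk1: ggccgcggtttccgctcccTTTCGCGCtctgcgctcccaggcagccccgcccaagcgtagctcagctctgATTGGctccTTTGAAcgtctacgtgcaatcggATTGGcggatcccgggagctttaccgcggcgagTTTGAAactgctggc
Top2a: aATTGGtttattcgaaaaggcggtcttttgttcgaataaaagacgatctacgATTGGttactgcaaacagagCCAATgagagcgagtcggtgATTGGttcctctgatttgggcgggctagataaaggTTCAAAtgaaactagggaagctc
Mki67: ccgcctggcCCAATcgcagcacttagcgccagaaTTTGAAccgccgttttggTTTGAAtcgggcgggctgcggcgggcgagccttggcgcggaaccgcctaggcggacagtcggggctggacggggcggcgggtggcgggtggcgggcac
Ccnb1: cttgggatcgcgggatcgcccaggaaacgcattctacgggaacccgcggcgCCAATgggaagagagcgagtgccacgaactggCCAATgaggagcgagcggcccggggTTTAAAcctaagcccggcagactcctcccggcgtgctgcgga
Mcm5: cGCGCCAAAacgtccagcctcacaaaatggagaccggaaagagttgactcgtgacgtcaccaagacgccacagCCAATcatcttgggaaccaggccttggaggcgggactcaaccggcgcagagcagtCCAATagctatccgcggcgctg
Pcna: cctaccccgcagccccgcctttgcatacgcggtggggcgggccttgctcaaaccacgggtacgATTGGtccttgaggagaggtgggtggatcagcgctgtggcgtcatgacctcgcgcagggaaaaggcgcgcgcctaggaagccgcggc
Cdk1, Top2a, Mki67 and Ccnb1 held CHR and CCAAT letters within these bases, and Cdk1 E2F letters as well, while Mcm5 held CCAAT and E2F letters and Pcna a CCAAT box alone. The full 250 bases before the start were also searched. An entry was found for 34 of the 40 members, leaving Ccna2, Aurkb, Kif20a, Tpx2, Smc4 and Mcm4. A gene with several start sites counted as holding the letters if any of them did. CHR letters were present for 19 of the 34 members (55.9%), against 28.1% of 27025 genes, and CCAAT letters for 29 (85.3%), against 37.5%. E2F letters were rarer, in 5 members (14.7%) and 2.16% of genes. Among members of mitosis, kinetochore, cytokinesis and condensin, 16 of 24 held CHR letters, and among members of replication and nucleotide supply 3 of 10. A match is a run of letters and not evidence of binding.

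In the count table the libraries held between 2409623 and 7833440 counts, with the vehicle libraries of pairs 703 and 704 the deepest, so that 1 CPM of the library total stood for 2.41 to 7.83 counts, and the least abundant members rested on a handful of reads. CPM of single genes were scaled by TMM factors in addition, while CPM summed over a list are of the plain library total. The library pair 428 stood apart from the others in both groups. The members together took 220 to 391 CPM of a vehicle library and 612 to 913 CPM of a pyraclostrobin library, and the highest value of each group came from pair 428 (391 and 913), with the other vehicle libraries between 220 and 226 and the other pyraclostrobin libraries between 612 and 639. Neuronal markers were abundant in every library, at a summed 9119 to 9766 CPM with vehicle, so the labelled cell type was present, alongside astrocyte (669 to 1187 CPM), progenitor (377 to 951 CPM) and microglial (27.8 to 39.7 CPM) markers. Endothelial Cldn5 had no count in any library and the oligodendrocyte gene Sox10 had 2 counts in 1 of them. Other genes of their lists were present, with summed levels of 4.60 to 9.68 CPM (endothelial) and 57.2 to 157 CPM (oligodendrocyte lineage) with vehicle. In bulk samples, fewer cells of a type and less RNA per cell cannot be told apart.

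Per kilobase of exon, the most abundant members in vehicle cultures were Rrm2 (9.67 CPM per kb), Pcna (8.16), Kif20a (5.48), Rrm1 (5.20) and Ccna2 (4.29). The proliferation marker Mki67 lay at 1.54 CPM per kb and Cdk1 at 0.757. At the lower end stood Tyms, thymidylate synthase, the enzyme that the antimitotic of these cultures inhibits, at 0.171 CPM per kb. With pyraclostrobin the level of Rrm2 was 23.1, that of Pcna 13.1 and that of Mki67 5.46 CPM per kb.

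Pyraclostrobin, a strobilurin fungicide that blocks mitochondrial complex III, raised transcripts of cell cycle genes. Among the 34 members that reached 10 counts in 4 or more libraries, 17 were higher at an adjusted p under 0.01 by edgeR's quasi-likelihood test and none was lower, where 12.1% of the 12324 genes tested were higher and 9.22% lower. The median log2 fold change was 1.52 over these members and -0.0021 over all genes tested. Of the 34, 16 reached the count minimum only with their pyraclostrobin libraries counted in. Of these 9 were among the 17 (Ccnb2, Cdk1, Birc5, Cdc20, Kif11, Cenpe, Nusap1, Ect2 and Anln), and Ccnb2 reached it in no vehicle library. In a fit without the count minimum all 40 members had a log2 difference above 0, from 0.0051 for Ncapg to 2.98 for Anln, with a median of 1.51. Groups did not overlap, with pyraclostrobin higher, for 24 of the 34 members tested and 26 of all 40, against 18.2% of all genes tested. The member counts rest in part on vehicle library 428, without which 29 of 34 members were higher (17.5% of genes), and without both libraries of that pair, left out after their high member levels were seen, 29 of 33 were (19.7% of genes). Leaving out any other library gave 13 to 15 (8.12% to 9.86% of genes). At an adjusted p under 0.05, 28 of the 34 were higher (18.5% of genes), and by DESeq2 27 were (14.4% of genes). With a block for the number of the library, 24 were (13.9% of genes).

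Mki67, whose protein coats mitotic chromosomes, was measured at 71.5, 48.2, 50.01 and 50.3 CPM in the pyraclostrobin libraries of pairs 428, 702, 703 and 704, and at 19.2, 14.3, 13.1 and 15.4 CPM in the vehicle libraries. All pyraclostrobin libraries were above all vehicle libraries, a 3.58-fold difference (log2 1.84 ± 0.19 SE, adjusted p = 5.44e-05). Top2a, the topoisomerase that untangles replicated chromosomes, gave 55.9, 21.7, 21.97 and 20.4 CPM with pyraclostrobin and 12.4, 6.98, 4.69 and 2.99 CPM with vehicle. The groups again did not overlap, and the fold was 4.79 (log2 2.26 ± 0.46 SE, adjusted p = 0.00304). Without vehicle library 703 its adjusted p was 0.0141, above the threshold.

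Cdk1, the kinase that starts mitosis, was close to the detection limit in 3 of the 4 vehicle libraries. Its level was 7.46 CPM in vehicle library 428 and 1.16, 1.07 and 0.747 CPM in the others, against 23.8, 10.1, 11.7 and 9.83 CPM with pyraclostrobin. The difference was 6.31-fold (log2 2.66 ± 0.63 SE, adjusted p = 0.00721) and passed the threshold in 1 of the 8 fits that left out a library. Ccnb1, cyclin B1, read 15.6, 4.11, 7.198 and 5.90 CPM with pyraclostrobin and 5.33, 2.33, 1.48 and 1.195 CPM with vehicle. Vehicle library 428 lay above the pyraclostrobin library of pair 702, and the log2 difference of 1.84 ± 0.54 SE did not pass (adjusted p = 0.0205), although it passed in 5 of the 14 alternative fits or thresholds. Cyclin B2, encoded by Ccnb2, read 3.91, 6.73, 7.198 and 3.93 CPM with pyraclostrobin and 0.355, 1.55, 0.939 and 1.195 CPM with vehicle, from 1 to 8 counts in a vehicle library, and in the fit without the count minimum the log2 difference was 2.28 (adjusted p = 0.00113). For Ccna2, cyclin A2, the log2 difference was 0.71 ± 0.33 SE (adjusted p = 0.115).

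Anln, Cdk1 and Ect2 rose most by fold change among the members called. All 3 reached the count minimum only with their pyraclostrobin libraries counted in. Their vehicle libraries held 5 to 19, 3 to 21 and 3 to 13 counts. In the fit without the count minimum their log2 differences were 2.98, 2.57 and 2.34. Anln, which encodes the scaffold of the cytokinetic ring, gave 37.1, 20.9, 19.3 and 18.9 CPM with pyraclostrobin and 5.33, 1.94, 2.55 and 2.09 CPM with vehicle. That is an 8.44-fold difference (log2 3.08 ± 0.35 SE, adjusted p = 0.00011), held with each library left out. Ect2, the exchange factor that switches on RhoA at the cleavage site, gave 16.02, 6.36, 9.09 and 6.68 CPM against 4.62, 1.16, 0.939 and 1.195 CPM, with no overlap. Its 5.44-fold difference (log2 2.44 ± 0.51 SE, adjusted p = 0.00361) passed the threshold in 3 of the 8 fits without 1 library. No member fell.

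**Figure D1:**
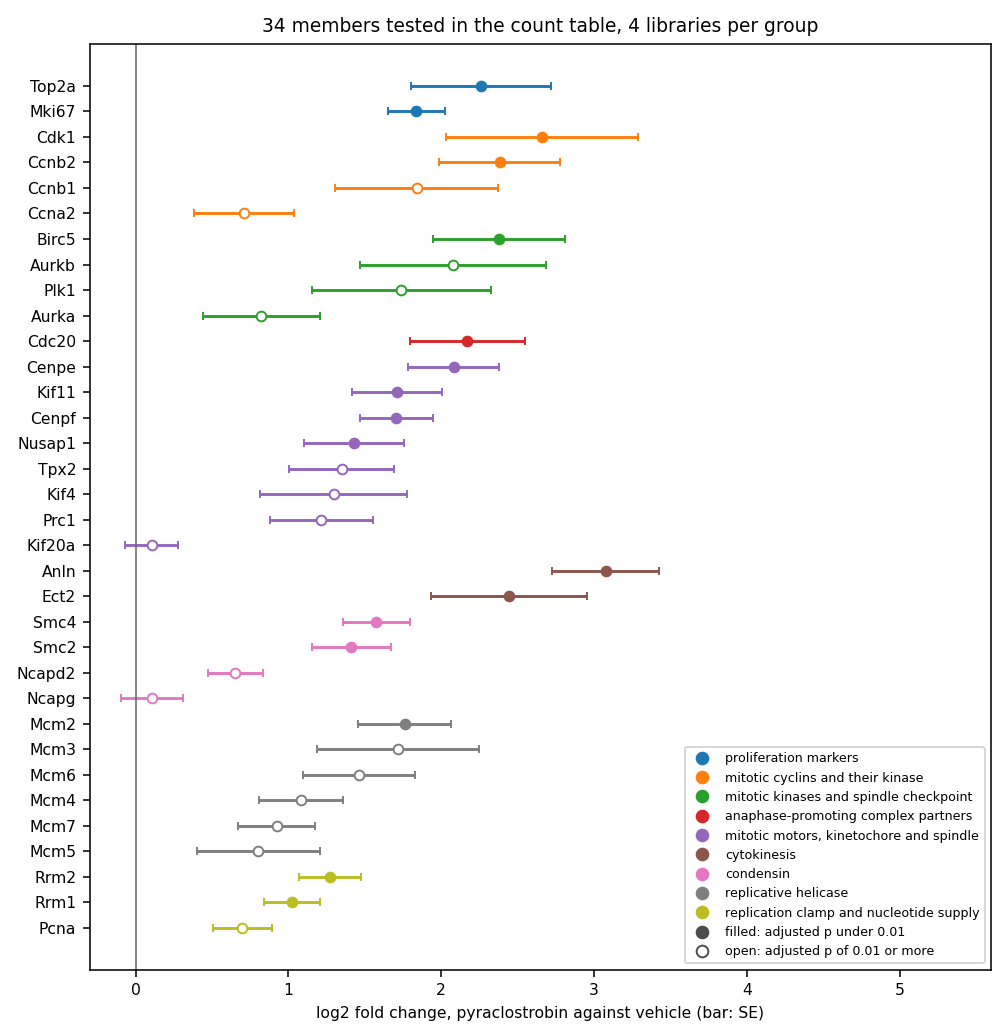
Log2 fold change of pyraclostrobin against vehicle on the x axis for each of the 34 members tested (rows, coloured by role), with bars for the standard error. Filled points passed an adjusted p of 0.01; every point lies above 0, from 0.10 for Kif20a to 3.08 for Anln.

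Among members for mitotic kinases and the spindle checkpoint, Birc5, the survivin subunit of the chromosomal passenger complex, rose 5.19-fold (adjusted p = 0.00159). The kinase genes Aurka, Aurkb and Plk1 had log2 differences of 0.82, 2.08 and 1.74 that did not pass (adjusted p = 0.12, 0.021 and 0.0385). Cdc20, the activator of the anaphase-promoting complex, rose 4.50-fold (adjusted p = 0.0012). Of the 8 tested members for motors, kinetochore and spindle, 4 rose: the kinesin gene Kif11 (3.28-fold), the kinetochore genes Cenpe (4.23-fold) and Cenpf (3.27-fold) and Nusap1 (2.69-fold), whose product bundles spindle microtubules. Their adjusted p-values ran from 0.000366 to 0.00624, and Nusap1 kept its call in 2 of the 8 fits without 1 library. Of the condensin genes, Smc2 rose 2.66-fold and Smc4 2.98-fold, whereas Ncapd2, a regulatory subunit, had a log2 difference of 0.65 ± 0.18 SE (adjusted p = 0.0145). With each library left out in turn, 13 of the 17 called members were called every time, and Top2a, Cdk1, Nusap1 and Ect2 were not.

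Among genes of DNA replication, 1 of the 6 helicase subunits rose, a share near the 12.1% of all genes tested, and 2 of the 3 tested genes of the clamp and nucleotide supply. The helicase subunit called was Mcm2 (33.6, 29.9, 29.2 and 16.9 CPM against 13.8, 7.75, 6.17 and 5.98 CPM, 3.39-fold, adjusted p = 0.00121). Mcm6 lay just past the threshold at an adjusted p of 0.010009. Mcm5 gave 12.5, 10.8, 4.92 and 6.29 CPM against 9.23, 3.49, 3.09 and 4.78 CPM, so the groups overlapped, and the log2 difference was 0.80 ± 0.41 SE (adjusted p = 0.149). Rrm2 read 68.0, 65.5, 61.4 and 60.9 CPM with pyraclostrobin and 40.5, 22.5, 22.5 and 21.7 CPM with vehicle, a 2.42-fold rise (adjusted p = 0.000712). Its partner Rrm1 rose 2.03-fold (adjusted p = 0.00142). Pcna was even across pyraclostrobin libraries at 31.3, 31.04, 32.2 and 31.1 CPM and ranged over 26.3, 18.2, 13.8 and 20.02 CPM with vehicle. These groups did not overlap, yet the 1.62-fold difference had an adjusted p of 0.0168 and did not pass. Tyms and Tk1, both of thymidine supply, were below the count minimum, as were Bub1, Bub1b, Ube2c and Kif23, and of these the groups of Kif23, a motor of the midbody, and Tyms did not overlap (Kif23 at 2.24 to 6.44 CPM with pyraclostrobin and 0.388 to 1.4201 CPM with vehicle).

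**Figure D2:**
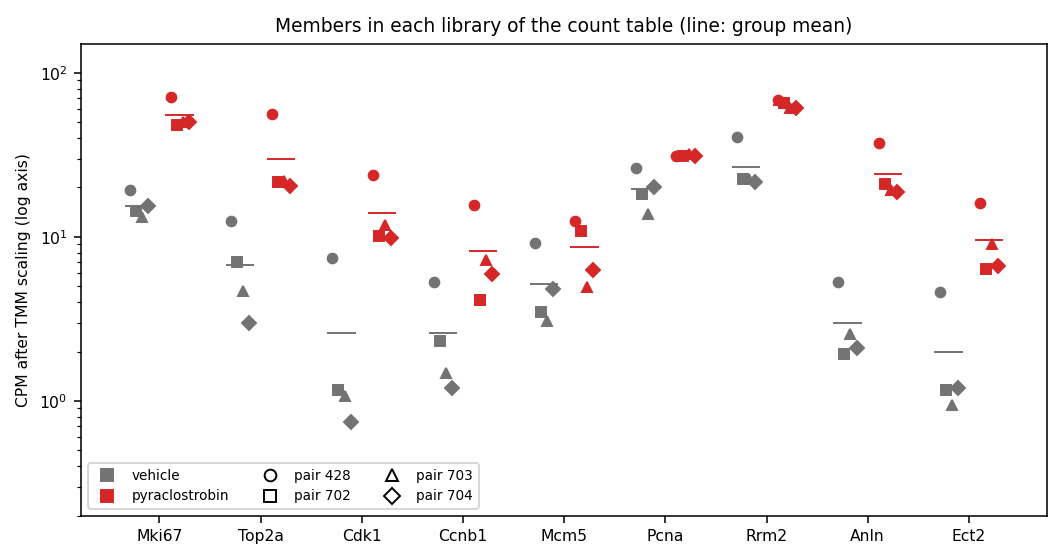
CPM after TMM scaling (y axis, log scale) of 9 members in the 4 vehicle (grey) and 4 pyraclostrobin (red) libraries, with 1 marker shape per pair and a line at each group mean. The circles of pair 428 are highest among vehicle libraries for all 9 genes, and vehicle and pyraclostrobin points overlap for Ccnb1 and Mcm5.

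The members with the smallest differences were Kif20a and Ncapg, at log2 0.10 ± 0.17 SE and 0.11 ± 0.20 SE (adjusted p = 0.681 and 0.719). Kif20a encodes a motor of cytokinesis and Ncapg a condensin subunit, and both shared exon bases with a gene on the opposite strand in the mm9 annotation, 32.3% of the exon length of Kif20a with Cdc23 and 13.3% of that of Ncapg with Lcorl. The library kit is named in the labels without a strand setting, so reads of such pairs cannot be told apart. The neighbours were more abundant, with Cdc23 at 93.2 and Lcorl at 118 CPM in vehicle cultures against 21.3 and 19.2 CPM for the members. Across the 393 libraries of the screen Ncapg correlated with Lcorl at r = 0.75, while the other 35 members correlated with Lcorl between -0.084 and 0.28. For Kif20a and Cdc23 r was 0.30, against -0.13 to 0.11 for the other members. Ccna2 shared 14.6% of its exon bases with Exosc9 (r = 0.44, others -0.15 to 0.14), and for Kif4 and Pdzd11 r was -0.064, within the range of the others (-0.12 to 0.14). The libraries share normalization and batch correction, and these values are a description. Kif4, Mcm7 and Ube2c also shared exon bases with opposite-strand genes (15.1% for Kif4 with Pdzd11, 22.8% for Ube2c with Tnnc2, and 12.6% for Mcm7, which includes miRNAs on its own strand). Values of these 6 members are uncertain. Smaller shares of exon bases lay in opposite-strand genes for Nusap1 (4.24%), Cdc20 (2.84%), Tk1 (1.60%) and Tyms (0.23%), of which Nusap1 and Cdc20 were among the members called higher.

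Of 68 further genes of the pathway, 46 were tested, 15 were higher and none was lower, against 12.1% and 9.22% of all genes (median log2 0.98). The log2 difference was above 0 for 42 of the 46 and below 0 for Cdkn2d, E2f3, Rbl2 and Dut. The G1 cyclins led: Ccnd1, which drives cells past the G1 checkpoint with CDK4 and CDK6, gave 882, 641, 831 and 618 CPM against 176, 141, 132 and 130 CPM (5.15-fold, adjusted p = 5.28e-06). Ccnd2 rose 4.90-fold and Cdk2 4.61-fold, and Cdk2 lost its call in 6 of the 8 fits without 1 library (highest adjusted p = 0.0155, without vehicle library 704). The CDK inhibitor gene Cdkn1a, which encodes p21 and halts the cycle, also rose, with 511, 354, 462 and 342 CPM against 201, 126, 124 and 119 CPM (2.93-fold, adjusted p = 0.000202). Of 12 genes for E2F, RB and DREAM factors, 10 were tested and Rb1, Rbl1 and Foxm1 were higher.

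Markers of other cell types moved with these genes. All 7 tested microglial markers were higher (summed 97.9 to 185 CPM with pyraclostrobin), as were 6 of 7 tested markers of fibroblasts, mural and smooth muscle cells (90.7 to 205 CPM with vehicle, 1250 to 1765 CPM with pyraclostrobin), 3 of 8 progenitor markers (1842 to 3369 CPM), 2 of 3 of the oligodendrocyte lineage (57.2 to 157 and 168 to 295 CPM), 1 of 7 tested astrocyte markers (1101 to 3827 CPM) and the only tested endothelial marker, Kdr (3.89 to 8.88 CPM with vehicle, 13.1 to 20.4 CPM with pyraclostrobin). Of 11 neuronal markers 7 were lower (4350 to 5497 CPM). Over all genes tested 12.1% were higher, near the astrocyte share, and 9.22% were lower. The part of the markers in the rise of the members was not tested. In pair 428 the astrocyte gene Gfap read 150 CPM with vehicle and 637 CPM with pyraclostrobin, against 20.9 to 28.97 and 59.8 to 93.2 CPM in the other pairs.

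In the screen the values are deviations of each gene from its own centre, given here on the log2 scale, and depth is unknown. In vehicle cultures the members varied more than most genes, with a median SD of 0.49 over 49 libraries against 0.25 for all 13304 genes. The SD was smallest for Kif20a (0.20) and largest for Cdc20 (0.91). Members moved together only weakly, with a median r of 0.11 over the 630 pairs of members across vehicle libraries. Across the 297 chemicals, the gene that followed the median of the other members most closely was Mki67 (r = 0.57), then Rrm2 (0.55), Top2a (0.48) and Cdk1 (0.41), and the least close were Ncapg (0.031) and Kif20a (0.039). The closest single pair was Mki67 and Cenpf (r = 0.43). All points share the authors' normalization, and the values are descriptive.

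The member median, the median deviation of the 36 members in a library, ran from -0.79 to 0.37 over vehicle libraries. The vehicle library at -0.79 stood apart from the next, at -0.23, with 33 of 36 members below 0. In that library the astrocyte, progenitor and microglial marker medians were -0.77, -0.51 and -0.59, and the neuronal one was 0.10. The oligodendrocyte median was -0.84, the only endothelial marker was at -1.15, and the median of fibroblasts, mural and smooth muscle cells was -0.051. The library also varied more over all genes, with an SD of 0.52 against a median of 0.39 for vehicle libraries. Over the 49 vehicle libraries the member median correlated at r = 0.58 with the astrocyte, 0.50 with the oligodendrocyte, 0.41 with the progenitor and -0.33 with the neuronal marker median. With the remaining lists r was 0.23 to 0.39. These values include the library at -0.79, which was also low for several of the marker lists. How far r depends on that library was not tested.

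Topotecan, a drug that traps topoisomerase 1 on DNA, lowered the transcripts of some of the members. By limma, 13 of the 36 members were lower at an adjusted p under 0.05 and none was higher, where 20.9% of the 13304 genes were lower and 24.8% higher. The median difference over the members was -0.18, against 0.028 over all genes, and 31 of 36 differences were negative. The member median was below 0 in 29 of 32 topotecan libraries and in 17 of 49 vehicle libraries. Without the vehicle library that stood apart, 13 members were again lower and none higher. At an adjusted p under 0.01, 10 were lower (17.4% of genes), and among the more variably expressed genes alone 10 of 30 were (14.8% of those genes).

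The largest differences were in Aurkb, Cdk1 and Ccnb1. Aurkb, the kinase that corrects attachments of chromosomes to the spindle, had a lowest, median and highest deviation of -2.68, -0.59 and 0.84 with topotecan and -1.27, -0.050 and 1.66 with vehicle. The mean difference was -0.72 ± 0.16 SE (adjusted p = 7.89e-05), with 25 of 32 topotecan libraries below the vehicle median. Cdk1 ran from -2.65 through -0.44 to 0.73 with topotecan and from -2.53 through 0.21 to 1.46 with vehicle, a difference of -0.64 ± 0.18 SE (adjusted p = 0.00192). Ccnb1 ran from -2.36 through -0.37 to 0.48 and from -1.27 through 0.033 to 1.64 (difference -0.52 ± 0.15 SE, adjusted p = 0.00311). The ranges of the groups overlapped for all 3 genes.

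Mki67 had values of -1.46, -0.42 and 0.16 (lowest, median, highest) with topotecan and -2.03, 0.11 and 0.68 with vehicle. The difference was -0.49 ± 0.089 SE (adjusted p = 3.43e-06), and 30 of 32 topotecan libraries lay below the vehicle median. Top2a gave -1.49, -0.42 and 0.41 against -1.745, 0.065 and 1.26 (difference -0.48 ± 0.12 SE, adjusted p = 0.000438). Tpx2, which targets Aurora A to the spindle, differed by -0.52 ± 0.11 SE, Anln by -0.36 ± 0.098 SE and Smc4 by -0.33 ± 0.11 SE. Cenpf, Ncapg, Mcm4, Rrm1 and Rrm2 were also called, with differences between -0.21 and -0.28. Of these Cenpf, Mcm4 and Rrm1 were not called at a threshold of 0.01, and Cenpf was not called among the more variably expressed genes (adjusted p = 0.0582).

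Of the replication members, 1 of 6 helicase subunits and 2 of 5 genes of the clamp and nucleotide supply were lower. Of all genes 20.9% were lower, so the helicase share was not above that of all genes. Rrm2 ran from -0.66 through -0.22 to 0.26 with topotecan and from -1.36 through 0.015 to 0.73 with vehicle (difference -0.23 ± 0.069 SE, adjusted p = 0.00477). Mcm5 ran from -0.77 through -0.14 to 0.44 and from -1.18 through 0.028 to 1.67, and its difference of -0.18 ± 0.11 SE did not pass (adjusted p = 0.177). Pcna ran from -0.53 through -0.18 to 0.31 and from -0.90 through -0.0083 to 0.62, with a difference of -0.10 ± 0.059 SE (adjusted p = 0.144). Of the 5 positive differences, the largest was that of Tyms, at 0.18 ± 0.14 SE (adjusted p = 0.334). Among the genes called, Ncapg (-0.24 ± 0.046 SE) lay beside Lcorl, whose own difference was -0.18 ± 0.039 SE (adjusted p = 5.05e-05).

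**Figure D3:**
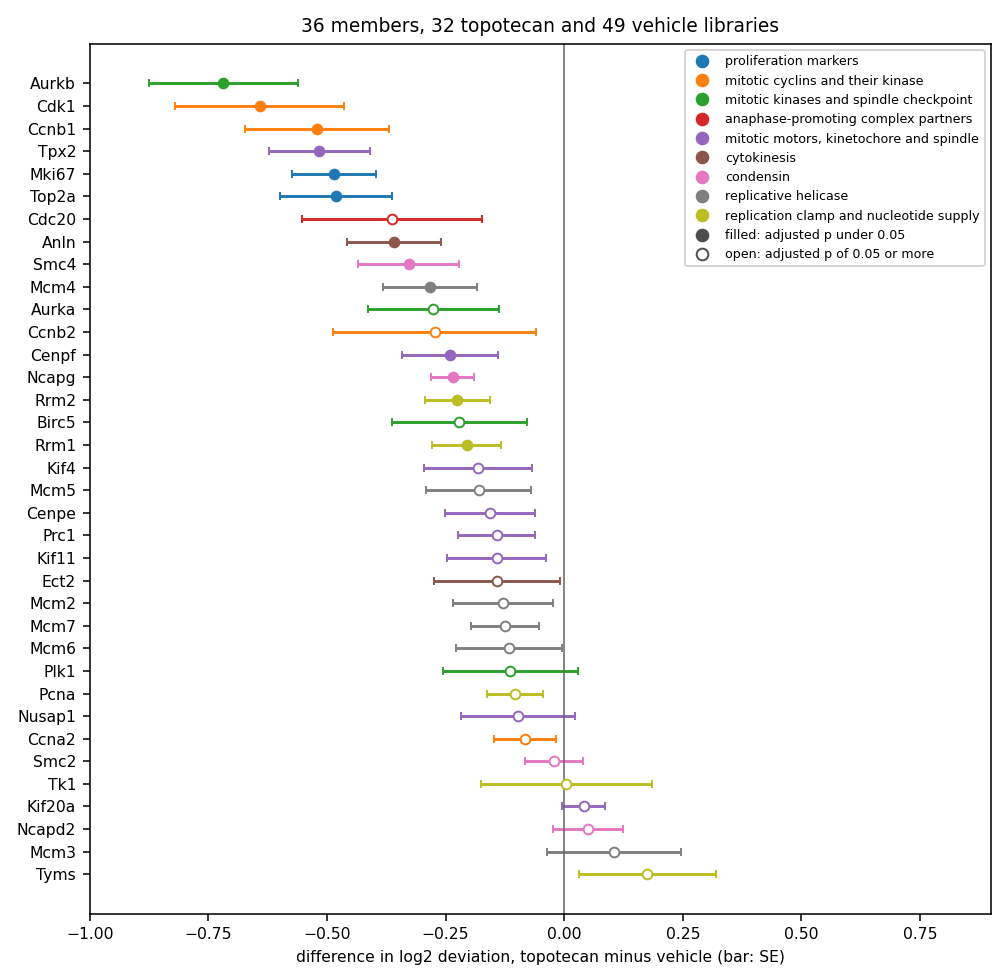
Difference in mean log2 deviation, topotecan minus vehicle, on the x axis for the 36 members (rows, coloured by role), with bars for the standard error. Filled points passed an adjusted p of 0.05; all 13 lie below 0, from Aurkb at -0.72 to Rrm1 at -0.21.

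Further cell cycle genes went in both directions with topotecan. Of 51 pathway genes in the screen, 12 were lower, a share close to the 20.9% of all genes, and 6 higher, where 24.8% of all genes were (median -0.084). The falls were led by Pola1, the catalytic subunit of DNA polymerase alpha (-0.58 ± 0.09 SE), Cep55, of the midbody (-0.58 ± 0.17 SE), and Ccne1, cyclin E1 (-0.47 ± 0.1 SE). Kif22 (0.50 ± 0.15 SE), Ccnd1 (0.32 ± 0.053 SE) and Cdc25b (0.24 ± 0.086 SE) led the rises, and Cdkn1a was higher by 0.20 ± 0.055 SE (adjusted p = 0.00219). Of the marker lists, 5 of 7 astrocyte markers were lower (median -0.43), 8 of 11 neuronal markers were lower and 3 higher, 3 of 8 progenitor markers were lower and 2 higher, and 1 of 5 microglial markers was lower. Also lower were 1 of 3 oligodendrocyte markers, 1 of 8 of fibroblasts, mural and smooth muscle cells, and the only endothelial marker, Kdr. The microglial share and the shares of neuronal and progenitor markers that were higher lay near those of all genes (20.9% lower, 24.8% higher). The part of the markers in the fall of the members was not tested.

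Groups of chemicals with a shared textbook target were then set against the remaining chemicals, with 1 value per chemical, the median where it had several libraries. Most chemicals had 1 library, so the spread is that between chemicals. Inhibitors of complex I (rotenone and tebufenpyrad at 0.01 μM, fenpyroximate and pyridaben at 0.1 μM) had member medians of 0.33, 0.11, 0.58 and 0.11 in this order. The difference from other chemicals was positive for 35 of 36 members, with a median of 0.30 (0.000197 over all genes), but by limma no member passed an adjusted p of 0.05, where 0.564% of genes were higher and 3.98% lower, and 4 members had an unadjusted p under 0.05. Ccna2 (0.43 ± 0.16 SE, adjusted p = 0.112) was 1 of them, and it was called when single libraries entered (1.20% of genes higher) or when vehicle libraries were the reference (2.80%). Mki67 read 0.58 with rotenone, -0.081 with tebufenpyrad, 0.90 with fenpyroximate and 0.12 with pyridaben, a difference of 0.31 ± 0.18 SE (adjusted p = 0.451). Cdk1 read -0.039, -1.09, 1.31 and 0.61, so the chemicals did not share a direction. Without fenpyroximate the member median difference was 0.20. In the same chemicals 6 of 11 neuronal markers were lower and Vim, Acta2 and Tagln higher. Their part was not tested.

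For 7 inhibitors of complex III the picture was similar. Member medians were 0.49 for pyraclostrobin and -0.025 for azoxystrobin, both strobilurins at 0.1 μM, 0.12 for fluoxastrobin at 1 μM, and 0.14, 0.35, 0.33 and 0.054 for trifloxystrobin, famoxadone, fenamidone and cyazofamid at 10 μM. Single libraries stand behind most of these values, so differences between chemicals at a matched concentration were not tested. By its label the pyraclostrobin library of the screen is library 428 of the count table, so its value of 0.49 and the count table are not independent. The difference from other chemicals was positive for 34 of 36 members with a median of 0.21 (-0.0051 over all genes), no member was called by limma, where 5.53% of genes were higher and 12.0% lower, and 1 member had an unadjusted p under 0.05. That member was Rrm2, positive with all 7 chemicals (lowest 0.083, median 0.21, highest 0.49), with a difference of 0.22 ± 0.11 SE (adjusted p = 0.167). It was called when single libraries entered (8.56% of genes higher), and Prc1 and Smc2 were called against vehicle libraries (10.2%). Cdk1 was also positive with all 7 (0.24, 0.51 and 1.402, difference 0.60 ± 0.33 SE, adjusted p = 0.236), Mki67 with 6 (-0.13, 0.31 and 0.63, adjusted p = 0.234) and Top2a with 5 (-0.92, 0.51 and 1.41, adjusted p = 0.287). Upstream G1 cyclins did pass: Ccnd1 was higher by 0.59 ± 0.09 SE, Ccnd2 by 0.48 ± 0.07 SE and Ccnd3 by 0.30 ± 0.084 SE (adjusted p = 2.58e-08, 6.59e-09 and 0.00436), and with complex I inhibitors Ccnd2 and Ccnd3 were higher by 0.31 ± 0.098 SE and 0.35 ± 0.11 SE (adjusted p = 0.0392 and 0.0447). Those 2 calls were lost without fenpyroximate or without rotenone (log2 0.15 and 0.28 for Ccnd2, 0.26 and 0.32 for Ccnd3), that of Ccnd2 also without pyridaben (0.36) and that of Ccnd3 without tebufenpyrad (0.36), and the call of Ccnd3 with complex III inhibitors was lost without pyraclostrobin (0.24). Cdkn1a, at 0.18 ± 0.067 SE with complex III inhibitors (adjusted p = 0.0465), lost its call without any 1 of pyraclostrobin, trifloxystrobin, famoxadone or fenamidone (0.14 to 0.17). Of neuronal markers 10 of 11 were lower. Of those of fibroblasts, mural and smooth muscle cells 5 of 8 were higher. Also higher were 3 of 8 progenitor, 2 of 7 astrocyte and 1 of 3 oligodendrocyte markers, and 0 of 5 microglial markers. The part of these markers was not tested. Between complex III and complex I inhibitors no member differed in 1 fit with all chemicals (median difference -0.12, smallest unadjusted p = 0.11, smallest adjusted p = 1.00 over all genes).

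Agents that act on microtubules gave no called member either. For 6 antitubulin pesticides (benomyl, thiophanate, thiabendazole, propyzamide and chlorpropham at 10 μM, zoxamide at 1 μM) the member median was 0.44 with thiabendazole and 0.16 with zoxamide, and between -0.16 and -0.0045 with the other 4. The median difference from other chemicals was 0.026, no member and no other gene of the 13304 was called by limma (0% higher, 0% lower), and 1 member had an unadjusted p under 0.05. That member was Kif11, the kinesin that pushes spindle poles apart, at a lowest of -2.54, a median of -0.34 and a highest of 0.29 (difference -0.55 ± 0.22 SE, adjusted p = 0.999). For 10 dinitroaniline and pyridine herbicides, which act on plant microtubules, the member median was above 0 with every chemical, from 0.019 with dithiopyr at 0.1 μM to 0.28 with oryzalin at 10 μM. It was also above 0 with 178 of all 296 chemicals other than topotecan and in 32 of 49 vehicle libraries, whose highest value was 0.37. For the herbicides, differences from other chemicals were positive for 30 of 36 members with a median of 0.15. No member was called by limma (0.00752% of genes were higher and 0.128% lower) and 6 had an unadjusted p under 0.05. Rrm2 was positive with all 10 chemicals (0.07, 0.28 and 0.76, difference 0.27 ± 0.092 SE, adjusted p = 0.289), Mcm6 with 9 (difference 0.56 ± 0.16 SE, adjusted p = 0.169) and Cdk1 with 9 (-0.68, 0.84 and 2.10, difference 0.75 ± 0.28 SE, adjusted p = 0.344).

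**Figure D4:**
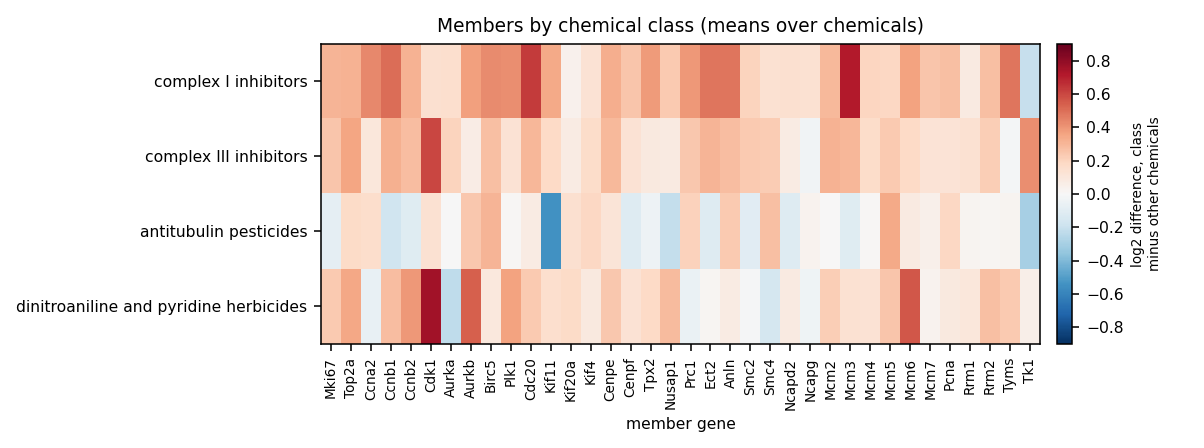
Difference in mean log2 deviation between each chemical class (rows) and all other chemicals for the 36 members (columns), red where the class was higher. Differences run from -0.55 (Kif11, antitubulin pesticides) to 0.75 (Cdk1, dinitroaniline and pyridine herbicides), and none passed an adjusted p of 0.05.

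Over the 296 chemicals other than topotecan the member median ran from -0.68 to 0.58, and 3 chemicals lay above the highest of the 49 vehicle libraries. These were fenpyroximate (0.58, with 35 of 36 members above 0), pyraclostrobin (0.49, 35 members) and thiabendazole (0.44, 32 members). The fungicide triflumizole (0.36) and famoxadone (0.35) followed. With fenpyroximate Mki67 was at 0.90, Top2a at 1.26, Ccnb1 at 1.14 and Rrm2 at 0.49. The lowest values were those of quintozene (-0.68), TCMTB (-0.63), linuron (-0.48), pyriproxyfen (-0.43) and tetramethrin (-0.38), all at 10 μM with 1 library each. With quintozene Top2a was at -2.09 and Ccnb1 at -2.60, and 4 of 36 members were above 0, and with TCMTB Cdk1 was at -2.41 and Ccnb1 at -2.79. None of the 296 lay below the lowest vehicle library, and 14 lay below the next one. The 296 chemicals, most with 1 library, outnumber the 49 vehicle libraries. Some may therefore lie beyond the vehicle values by chance, at either end, which was not tested. Marker medians of the extremes differed: astrocyte markers were at -1.19 with TCMTB and -0.64 with quintozene, and at 0.41 with fenpyroximate and 0.49 with pyraclostrobin. Over the 297 chemicals the member median correlated at r = 0.53 with the progenitor, 0.46 with the astrocyte, 0.46 with the oligodendrocyte and -0.31 with the neuronal marker median. With the remaining lists r was 0.22 to 0.44, and these values are a description.

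Agreement between libraries of a chemical could be seen in the 13 chemicals with 2 libraries. The member medians of both libraries had the same sign for 9 of the 13, and they were 0.036 to 0.61 apart, with a median gap of 0.21. Rotenone gave 0.28 and 0.32, fenamidone 0.17 and 0.52, famoxadone 0.12 and 0.49, and prochloraz -0.20 and 0.41.

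**Figure D5:**
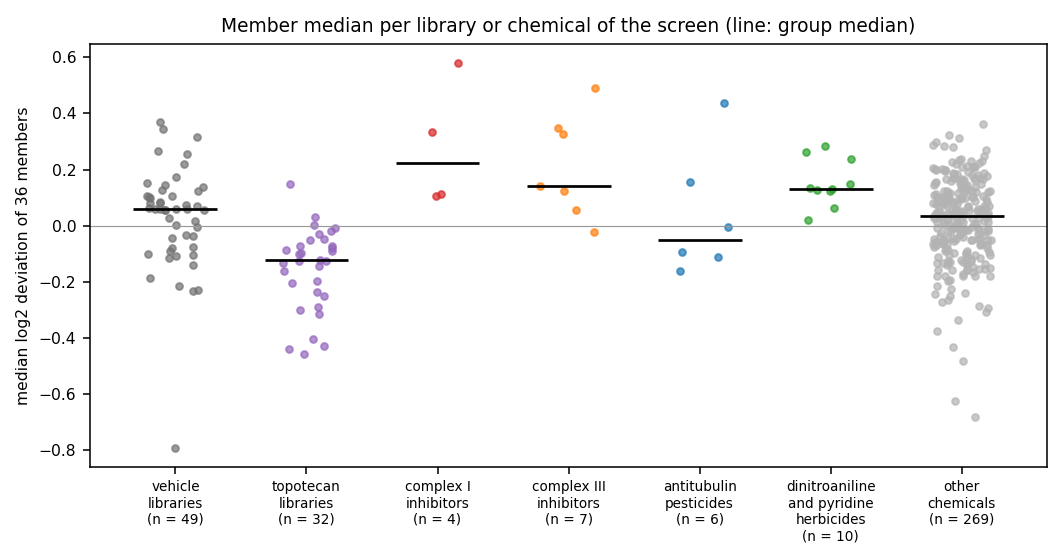
Median log2 deviation of the 36 members (y axis) for each vehicle and topotecan library and for each other chemical by class, with a line at the median of each group. Topotecan libraries sit mostly below 0 (median -0.12), 1 vehicle library lies at -0.79, and fenpyroximate (0.58) is the highest point.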

How the data were processed

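Polyadenylated RNA of mouse cortical cultures was sequenced, and libraries were assigned to chemicals by their labels. Per the labels and the methods, the authors removed artefact reads (TagDust), mapped the rest to the mouse genome mm9 (TopHat) and counted them over RefSeq exons, and these raw counts were deposited for pyraclostrobin. For the screen, the authors deposited log10 RPKM values, quantile-normalized, centred per gene and corrected for culture and sequencing batch, so batches can no longer be examined. Counts were tested with edgeR 4.0.16 (TMM, quasi-likelihood, at least 10 counts in at least 4 libraries, Benjamini-Hochberg threshold 0.01), with DESeq2 1.42.0 as an alternative, and the screen, converted to log2, with limma 3.58.1 (threshold 0.05), in R 4.3.3. Both tests were tested on simulated data. Chemicals were classed by textbook target, not by expression. Members, gene lists and classes were chosen with earlier results of these data known.

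Values in each library are given for Mki67, Top2a, Cdk1, Ccnb1, Mcm5, Pcna, Rrm2 and the 3 largest called changes in each direction; of further pathway genes, Ccnd1, Cdkn1a and the 3 largest called changes each way are named, and of the chemicals, the 5 highest and 5 lowest by member median. Other members and Camptothecin and Irinotecan were named after their values were seen. Gene positions and exon overlaps come from an mm9 annotation, promoters from RefSeq. A count table of sulforaphane and fenamidone was not analysed, since its 6 columns bear the same name. Samples with the same number were not treated as pairs: deviations from group means correlated at 0.376, 0.102, -0.0287 and 0.161 for pairs 428, 702, 703 and 704. Pyraclostrobin library 428 correlated at -0.22, -0.25 and -0.31 with vehicle libraries 702, 703 and 704. Its number thus went with a shared deviation, which the fit reported leaves in the spread between libraries. Pyraclostrobin library 702 correlated at 0.196 and 0.218 with vehicle libraries 703 and 704, above the value for its own number.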

Additional observations from a re-analysis of the deposited data

Results flagged for a closer look

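Library values were compared within groups of 4 to 10 by Dixon's ratio, the gap of the extreme value to its neighbour over the range of the group. Of 115 groups of values examined, 14 exceeded the critical value, where about 1 in 20 (5.8) would by chance, and 12 of the 14 came from pair 428 of the count table. In the vehicle library of pair 428 the ratio was 0.917 for Ccna2, 0.845 for Cdk1, 0.862 for Nusap1, 0.871 for Ect2, 0.856 for Mcm4, 0.836 for Mcm6, 0.937 for Rrm2 and 0.955 for the summed CPM of the 40 members. In the pyraclostrobin library of that pair it was 0.893 for Mki67, 0.929 for Top2a, 0.847 for Anln and 0.892 for the summed CPM. All 12 values were the highest of their group, and genes of 1 library are not independent. Among the herbicides, Mcm5 was low with oryzalin (-1.69, ratio 0.564) and Rrm2 high with ethalfluralin (0.76, ratio 0.468), each from 1 library.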

How the results depend on the processing

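With pyraclostrobin, 17 members were higher in the fit reported, 28 at a threshold of 0.05, 27 by DESeq2, 18 with size factors by relative log expression, 19 of 40 without a filter, 13 to 29 with 1 library left out and, chosen after seeing the data, 29 without pair 428. With a replicate block the count was 24 (13.9% of genes higher), adding Ccnb1, Aurkb, Tpx2, Prc1, Mcm3, Mcm4 and Mcm6. By the check above the libraries numbered 428 went together, whereas the other numbers did not pair the samples. No alternative called a member lower, and the member median stayed between 1.28 and 1.87. With topotecan 10 to 13 members were lower under 6 alternatives, 1 of them added after seeing the data, and none was higher. With complex I inhibitors 1 member, Ccna2, was called from single libraries and 1 against vehicle libraries, and with complex III inhibitors 1 (Rrm2) from single libraries and 2 (Prc1 and Smc2) against vehicle. Leaving out 1 chemical called 0 members in every class. Directions of uncalled members changed with the chemicals included: positive differences numbered 35 of 36 with complex I inhibitors and 32 without fenpyroximate, 34 with complex III inhibitors and 31 against vehicle, and 23 with antitubulin pesticides and 16 to 27 over the alternatives. Of the members described singly, those that reversed were Cdk1 without fenpyroximate (-0.22) among complex I inhibitors and, among antitubulin pesticides, Mki67 without propyzamide (0.095), Ccnb1 without thiophanate (0.022), Top2a and Rrm2 without thiabendazole (-0.0059 and -0.0076) and Cdk1 and Rrm2 without zoxamide (-0.25 and -0.093); the cause was not tested. Kif20a and Ncapg also lay below 0 in some count fits (lowest -0.069 and -0.081). The alternatives planned for sulforaphane plus fenamidone were not run. Depth limits members under a few CPM, such as Cdk1, whose vehicle libraries other than 428 held 3 to 8 counts.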

Other observations

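Topotecan was not the only inhibitor of topoisomerase 1 in the screen. Camptothecin at 0.3 μM, with 1 library, had a member median of -0.070, with 15 of 36 members above 0, and irinotecan at 10 μM, with 1 library, a member median of 0.035, with 22 members above 0. The median of the 32 topotecan libraries per gene gave -0.18, with 3 members above 0. Diethyltoluamide, the other chemical with more than 2 libraries, gave member medians of 0.17, 0.0079, 0.14 and -0.19 at 10 μM.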
